A study of Mus musculus with 8 samples.

Results

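The aryl hydrocarbon receptor (AhR) battery was followed in mouse lung RNA as 6 genes of the 52636 in the count tables. They are the target genes Cyp1a1, Cyp1b1, Ahrr and Tiparp, the receptor gene Ahr, and Arnt, the gene of its partner protein. The genes were listed by name, and the list was chosen by the measured Cyp1a1 levels, which stood high in single libraries of mice on the control diet. Those Cyp1a1 values are therefore given as a description with no test. All 6 genes had counts in every library and all 6 passed the filter on low counts, as did 20546 genes in all. The question put to the data was whether the other 5 genes rose in the same libraries as Cyp1a1.

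Lungs of wild type male C57BL/6 mice were studied in 4 groups with 2 libraries each. Control mice, called PBS mice below, received phosphate-buffered saline (PBS) into the trachea. Model mice, called COPD mice below, were given elastase from porcine pancreas (PPE), which damages the alveolar walls, at 10 weeks of age and lipopolysaccharide (LPS), a bacterial inflammatory agent, from 12 weeks of age. From 8 weeks of age each of these was either control-fed or TJ-41-fed, on a diet with 2% TJ-41 (hochuekkito, a Japanese herbal medicine). The model is one of injury by instilled enzyme and LPS, with no exposure to smoke. The day of lung collection for RNA is not given in the sources used here, and neither is whether a library came from 1 mouse, so the p-values below measure only the spread between these libraries.

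AhR is a ligand-activated transcription factor that waits in the cytoplasm with Hsp90 chaperones. Once it binds a ligand, such as a combustion product, a plant compound or a tryptophan metabolite, it moves to the nucleus, pairs with ARNT and binds a short DNA element upstream of its targets. Cyp1a1 is the classical inducible target. In the lung it can be induced in capillary endothelium, club cells and alveolar type II cells. Ahrr and Tiparp encode feedback inhibitors of the receptor.

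The start regions of the 4 target members are shown because the core of the AhR:ARNT element, GCGTG or CACGC when read on the other strand, is what such targets are known to share. RefSeq windows of the GRCm38.p6 assembly, 250 bases before to 50 bases after each gene start, were searched on both strands. A window was found for 5 of the 6 members, and none was found for Ahr. Capitals mark the element, and each window is written 5′ to 3′ on the strand of its gene. The Cyp1a1 window lies at chr9:57697363-57697662 on the plus strand, that of Cyp1b1 at chr17:79715012-79715311 on the minus strand, that of Ahrr at chr13:74292282-74292581 on the minus strand and that of Tiparp at chr3:65528197-65528496 on the plus strand.
Cyp1a1: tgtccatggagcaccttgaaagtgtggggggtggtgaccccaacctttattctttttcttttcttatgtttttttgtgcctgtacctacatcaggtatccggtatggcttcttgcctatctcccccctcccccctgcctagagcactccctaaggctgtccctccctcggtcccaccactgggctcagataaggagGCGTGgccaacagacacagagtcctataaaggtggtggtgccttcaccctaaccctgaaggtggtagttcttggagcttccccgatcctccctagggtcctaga
Cyp1b1: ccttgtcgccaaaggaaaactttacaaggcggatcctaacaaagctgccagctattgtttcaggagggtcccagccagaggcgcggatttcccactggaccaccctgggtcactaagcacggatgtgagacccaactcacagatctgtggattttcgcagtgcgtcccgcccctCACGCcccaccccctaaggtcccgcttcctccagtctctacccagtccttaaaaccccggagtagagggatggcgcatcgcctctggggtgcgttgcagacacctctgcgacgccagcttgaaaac
Ahrr: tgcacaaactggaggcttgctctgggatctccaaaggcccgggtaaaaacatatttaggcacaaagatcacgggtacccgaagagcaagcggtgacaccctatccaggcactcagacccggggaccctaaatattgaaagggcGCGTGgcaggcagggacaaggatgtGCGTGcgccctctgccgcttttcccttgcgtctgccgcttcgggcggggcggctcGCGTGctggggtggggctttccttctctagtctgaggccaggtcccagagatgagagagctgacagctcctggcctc
Tiparp: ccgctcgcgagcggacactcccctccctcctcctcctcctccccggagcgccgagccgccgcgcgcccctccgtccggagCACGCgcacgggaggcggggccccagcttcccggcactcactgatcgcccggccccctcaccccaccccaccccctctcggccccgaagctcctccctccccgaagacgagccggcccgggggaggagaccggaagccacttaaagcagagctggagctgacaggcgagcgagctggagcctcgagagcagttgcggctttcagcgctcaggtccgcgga

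All 5 windows held the element. Cyp1a1 had 1 match, beginning 54 bases before the gene start, Cyp1b1 had 1 at 76 bases before it and Tiparp had 1 at 170 bases before it. Ahrr had 3 matches, at 107, 82 and 27 bases before the start. Arnt, which is not printed, had 1 at 29 bases before it. The element stood in 32.4% of all 32851 windows of the same length, and 3 or more matches stood in 3.91%. The same letters are also a form of the element bound by hypoxia-inducible factors with ARNT. A match is a description of the letters only, and the well-studied enhancer of Cyp1a1 lies further upstream than these windows reach.

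In the annotation of the same genome build (GRCm38, GENCODE M21), Cyp1a1 (ENSMUSG00000032315) is a protein-coding gene at chr9:57687928-57703824. It has 2 transcripts there, and the RefSeq start used for the window is that of the shorter one, 9685 bases inside the gene. For the other 4 windows the RefSeq start lay 0 to 37 bases inside. Of its 50-base exon stretches, 3.43% also occur in Cyp1a2, its neighbour and closest relative. Cyp1b1, Tiparp, Ahr and Arnt shared none with another gene, and Ahrr shared 0.232%. Tiparp, Ahr and Arnt each overlap a gene with low counts, at most 41, 8 and 27 per library. The strand setting of the counting is not given in the sources used here.

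The libraries held 18767295 to 20888042 counts, and the values below are CPM, read counts scaled to the library size after TMM correction. Alveolar type II markers summed to 18205 to 37180 CPM and club cell markers to 14238 to 32898 CPM, so defining lung markers were high in every library. The 2 libraries of control-fed COPD mice differed most. The standard deviation of the log2 difference between the 2 replicates over all genes tested was 0.675 in that group and 0.313 to 0.377 in the other 3. This value cannot say which of the 2 departs. Replicate 2 had the highest alveolar type II sum and the highest ciliated sum (502 CPM, at most 345 elsewhere). Its neutrophil sum was the lowest (62.8 CPM), while replicate 1 had the lowest club cell sum. Replicate 2 is called the library that stood apart below.

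Cyp1a1, the P450 enzyme that oxidizes polycyclic aromatic compounds, was high in 1 library of each control-diet group. In control-fed PBS mice it stood at 171 CPM in replicate 1 and 5.45 CPM in replicate 2. In control-fed COPD mice it stood at 5.01 CPM in replicate 1 and 147 CPM in replicate 2. On the TJ-41 diet it stood at 1.43 and 1.78 CPM in PBS mice and at 1.98 and 3.22 CPM in COPD mice. The high libraries were thus 1 of each disease state, with different replicate numbers, and the other control-diet library of each group still lay above all 4 TJ-41 libraries.

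The counts behind these levels were 3270 and 105 in control-fed PBS mice, 96 and 2859 in control-fed COPD mice, and 28 to 63 on the TJ-41 diet. Replicate 1 of control-fed PBS mice exceeded replicate 2 by 31.4-fold, with a 95% interval of 25.8 to 38.5 that covers counting error only. Replicate 2 of control-fed COPD mice exceeded replicate 1 by 29.3-fold (23.9 to 36.3). From the lowest to the highest library the level spanned 119-fold. As group means this gave 88.2 ± 117 CPM in control-fed PBS mice and 75.8 ± 100 CPM in control-fed COPD mice, against 1.61 ± 0.247 and 2.60 ± 0.876 CPM on the TJ-41 diet (SD, n = 2 each). In both control-diet groups the SD was larger than the mean.

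**Figure D1:**
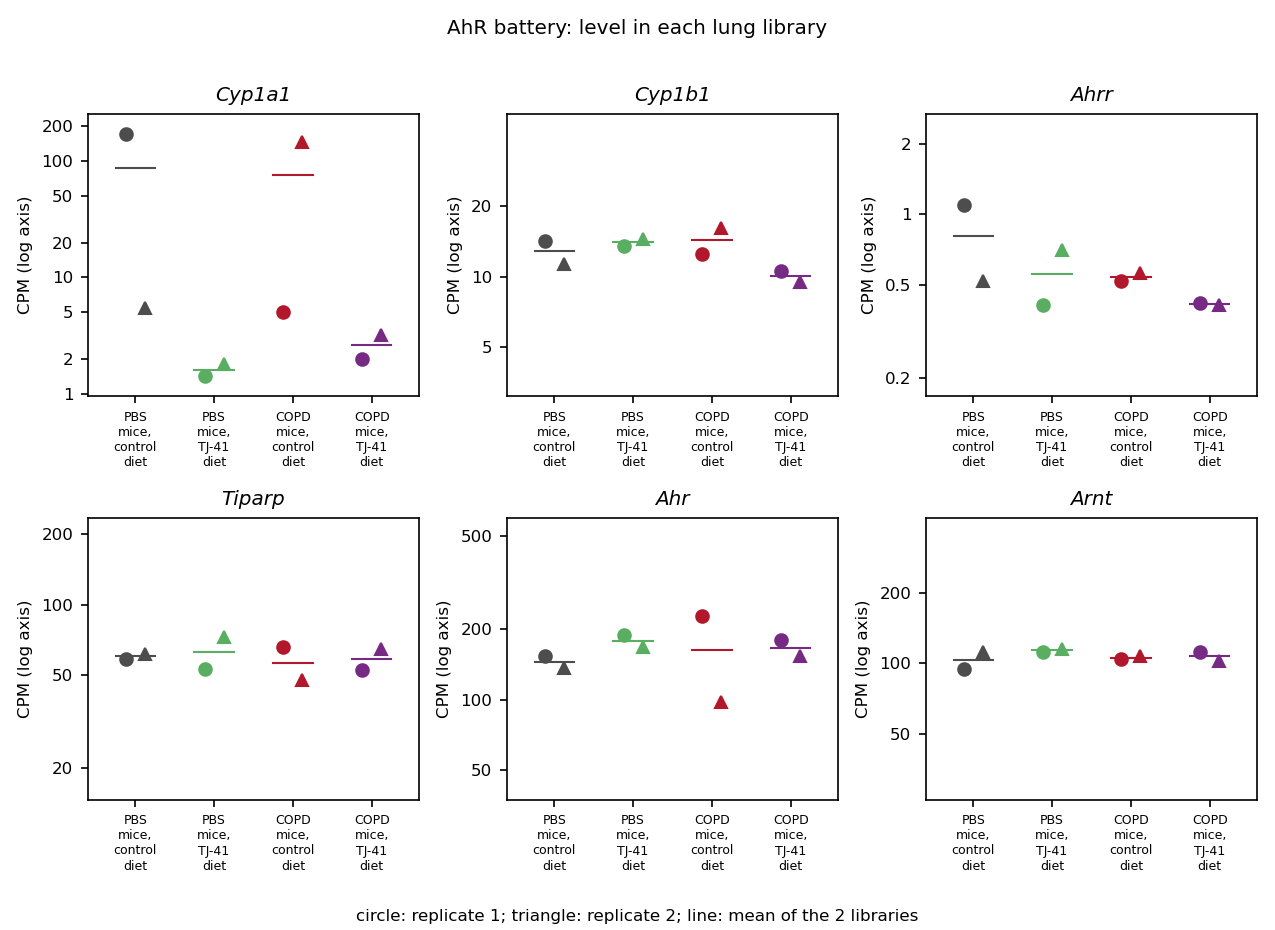
Level of each of the 6 genes in CPM on a log axis, with 1 point per library (circle for replicate 1, triangle for replicate 2) and a line at the mean of the 2 libraries of each group. Cyp1a1 stood at 171 and 147 CPM in 1 library of each control-diet group and at 1.43 to 5.45 CPM in the other 6, while the other 5 genes varied by 1.22-fold to 2.69-fold over all 8 libraries.

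Cyp1b1, another inducible member of the family, which also metabolizes estrogens, did not show this split. It stood at 14.3 and 11.4 CPM in control-fed PBS mice and at 13.6 and 14.5 CPM on the TJ-41 diet. In COPD mice it stood at 12.5 and 16.2 CPM on the control diet and at 10.6 and 9.51 CPM on the TJ-41 diet. Its highest library was replicate 2 of control-fed COPD mice, the same in which Cyp1a1 was high, but it exceeded the lowest by only 1.70-fold. The 2 diets overlapped in PBS mice and did not overlap in COPD mice. How many of all genes tested separate 2 against 2 libraries in this way was not counted. No diet effect is therefore read from it.

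Ahrr, the repressor that competes with AhR for ARNT, was barely detected. It stood at 1.1 and 0.519 CPM in control-fed PBS mice, at 0.41 and 0.703 CPM in TJ-41-fed PBS mice, at 0.521 and 0.564 CPM in control-fed COPD mice, and at 0.417 and 0.409 CPM in TJ-41-fed COPD mice. These levels were 8 to 21 counts. Replicate 1 of control-fed PBS mice, a library with high Cyp1a1, had the most Ahrr, but the ratio to its replicate was 2.12 with a counting interval of 0.954 to 5.03. The other library with high Cyp1a1 had 11 counts against 10 in its replicate, so a rise of Ahrr was not detectable there at this depth.

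Tiparp, an ADP-ribosyltransferase that acts back on AhR and limits it, stood at 58.7 and 61.9 CPM in control-fed PBS mice and at 53.0 and 72.6 CPM on the TJ-41 diet. In COPD mice it stood at 65.8 and 47.5 CPM on the control diet and at 52.5 and 65.0 CPM on the TJ-41 diet. All groups overlapped. Both libraries with high Cyp1a1 had less Tiparp than their replicates. In PBS mice the ratio was 0.948 with a counting interval of 0.873 to 1.03, and in COPD mice the high library had the least of all 8.

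Ahr itself stood at 154 and 136 CPM in control-fed PBS mice, at 188 and 168 CPM in TJ-41-fed PBS mice, at 228 and 97.6 CPM in control-fed COPD mice, and at 180 and 153 CPM in TJ-41-fed COPD mice. The highest and the lowest level came from the same group, and the library with high Cyp1a1 was the lowest. Arnt, which is also the partner of hypoxia-inducible factors, was the steadiest member, at 94.4 to 115 CPM with a median of 109. Its lowest library was the one with the most Cyp1a1, replicate 1 of control-fed PBS mice.

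Per kilobase of exon, Ahr was the most abundant member in the 6 libraries with low Cyp1a1, with a median of 28.2 CPM per kb (22.0 to 36.9), above the range of every other member. Tiparp followed with 14.6 (at most 16.7) and Arnt with 13.9 (12.7 to 14.4), and the ranges of these 2 overlapped. Cyp1b1 had a median of 2.04 CPM per kb (1.63 to 2.49), below every library of the former 3, and Ahrr the lowest at 0.0496 (0.0433 to 0.0744). In replicate 2 of control-fed COPD mice Ahr was at 15.8 CPM per kb. Cyp1a1 changed place in this order. It stood at 61.4 and 52.6 CPM per kb in the libraries where it was high, above every other member, and at 0.515 to 1.96 in the other 6, where it lay close to or below Cyp1b1.

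To ask whether the rise was shared, the 2 libraries of each control-diet group were compared gene by gene as a difference in log2(CPM + 0.5), the library with more Cyp1a1 minus its replicate. Cyp1a1 itself, which prompted the comparison, differed by 4.85 in PBS mice and by 4.74 in COPD mice, and in the next paragraphs both names stand for the control-fed pairs. No other gene tested differed by as much in either direction in PBS mice, whereas 7 genes, Cyp1a1 included, did so in COPD mice. With 1 library on each side there is no replicate check of these differences.

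None of the other 5 members exceeded a difference of 1 in that direction in either group. Over all genes tested, 0.730% did so in PBS mice (0.896% in the opposite direction), 5.70% in COPD mice and 0.195% in both, so a count of 0 among 5 lies near the background. Cyp1b1 was higher in both high libraries, by 0.32 and 0.36, or 1.26-fold (1.05 to 1.51) and 1.29-fold (1.09 to 1.54) with counting intervals. Ahrr differed by 0.65 and 0.06. Of all genes tested, 30.2% were higher in both of these libraries.

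The remaining members went the other way in at least 1 group. Tiparp differed by -0.08 and -0.47, Arnt by -0.24 and 0.03, and Ahr by 0.18 and -1.22. The Ahr difference in COPD mice was the only one beyond 1 among the other 5 members, and 6.58% of all genes tested passed 1 in its direction there. In the TJ-41 groups no member differed by more than 1 between replicates, where 0.248% (replicate 1 higher) and 0.531% (replicate 2 higher) of all genes tested did in PBS mice, and 0.925% and 0.297% in COPD mice. Cyp1a1 differed there by -0.24 and -0.58 for replicate 1 minus replicate 2.

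**Figure D2:**
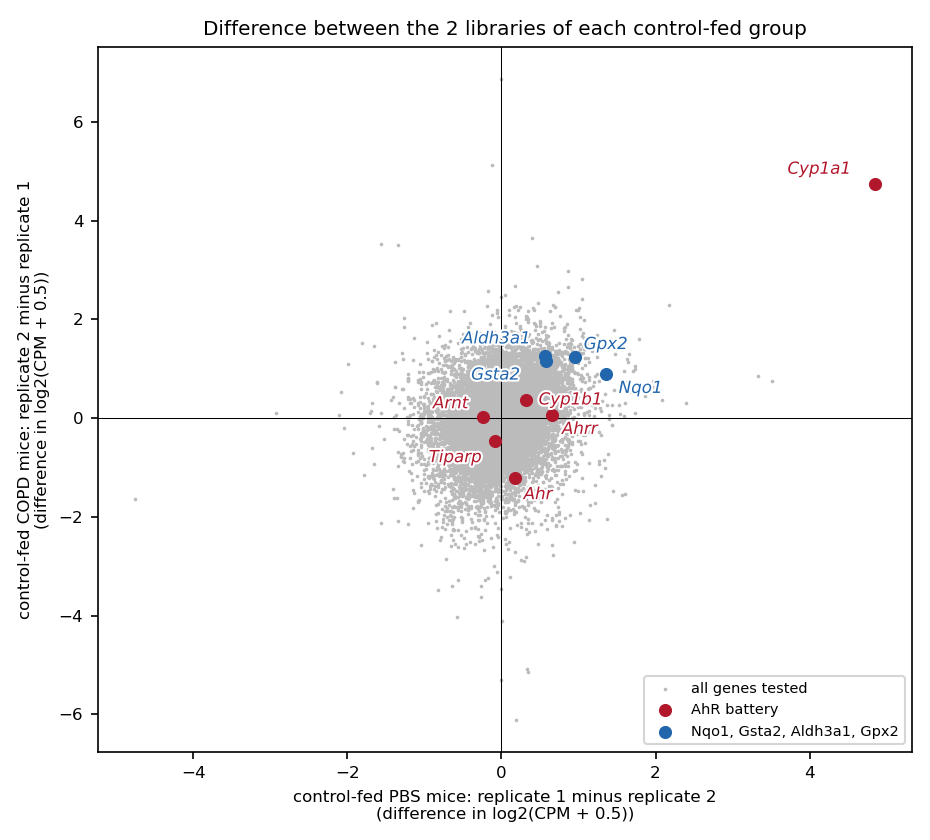
Difference in log2(CPM + 0.5) between the 2 libraries of control-fed PBS mice (horizontal) and of control-fed COPD mice (vertical), signed so that the library with more Cyp1a1 comes first, for all 20546 genes tested, with the 6 members in red and 4 other genes in blue. Cyp1a1 stood alone at 4.85 and 4.74, Cyp1b1 lay within the cloud at 0.32 and 0.36, and Nqo1 lay at its edge at 1.36 and 0.89.

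A correlation over all 8 libraries would rest on the 2 libraries with high Cyp1a1, which form a separate cluster, so none was tested. Over the other 6 libraries, where Cyp1a1 ran from 1.43 to 5.45 CPM, the 5 relations of log2(CPM + 0.5) gave Pearson's r of -0.38 for Cyp1b1, 0.07 for Ahrr, 0.36 for Tiparp, -0.14 for Ahr and -0.55 for Arnt. Spearman's rho was -0.49, 0.14, 0.14, -0.37 and -0.71 in the same order. The smallest two-sided exact permutation p was 0.286 for r and 0.136 for rho, both for Arnt, over 720 pairings, and the smallest adjusted p was 0.78 and 0.681 (Benjamini-Hochberg over the 5 relations). No relation was detected, and 6 libraries limit what could be. They leave out the 2 libraries with the rise, so they cannot show whether the rise was shared. Among them Cyp1a1 was higher on the control diet (5.45 and 5.01 CPM) than on the TJ-41 diet (1.43 to 3.22 CPM), and the pairings ignored the groups.

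The group comparisons asked whether the disease model or the diet moved the battery. A gene was called at an adjusted p under 0.05 and a log2 fold change beyond 1 (edgeR's quasi-likelihood test, Benjamini-Hochberg adjustment over all genes tested). In control-fed COPD mice against control-fed PBS mice, 0.122% of all genes were called and 0 of the 5 members besides Cyp1a1. Cyp1b1 had a log2 fold change of 0.16 ± 0.22 (SE), Ahrr of -0.57 ± 0.54, Tiparp of -0.09 ± 0.22, Ahr of 0.17 ± 0.33 and Arnt of 0.04 ± 0.16. Their adjusted p ranged from 0.888 to 0.986 in edgeR's quasi-likelihood test. Without the library that stood apart Ahr gave 0.66 ± 0.17 (adjusted p = 0.118 in edgeR's quasi-likelihood test), and without its replicate it gave -0.57 ± 0.17 (adjusted p = 0.0546), so 1 library set the direction. Without the library that stood apart Cyp1b1 gave -0.04, Tiparp 0.13 and Arnt 0.02, so the first 2 changed sign.

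Cyp1a1 had a log2 fold change of -0.22 in that comparison, and its direction was set by which high library was in the fit. It was 3.80 without replicate 1 of control-fed PBS mice and -4.13 without replicate 2 of control-fed COPD mice. On the TJ-41 diet 0.0779% of all genes were called, and again none of the 5 members. There Cyp1a1 gave 0.69 and Cyp1b1 -0.48 ± 0.23 (adjusted p = 0.765 in edgeR's quasi-likelihood test). Ahrr gave -0.42 ± 0.58 and the other 3 between -0.10 and -0.09.

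The TJ-41 diet was compared with the control diet within each disease state. In PBS mice no gene was called (0%), with 336 genes at an unadjusted p under 0.05 in edgeR's quasi-likelihood test and 6 genes called by DESeq2, none of them 1 of the 5 members. Cyp1b1 gave 0.13 ± 0.22, Ahrr -0.54 ± 0.54, Tiparp 0.06 ± 0.22, Ahr 0.30 ± 0.33 and Arnt 0.15 ± 0.16, each with an adjusted p of 0.996 in edgeR's quasi-likelihood test. Cyp1a1 had a log2 fold change of -5.77, which became -1.76 without replicate 1 of the control diet.

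In COPD mice 0.00487% of genes were called, and none of the 5 members. Cyp1b1 was the member nearest to the threshold, with -0.51 ± 0.23 (adjusted p = 0.991 in edgeR's quasi-likelihood test). It gave -0.31 without the library that stood apart. Cyp1a1 gave -4.86, and -0.94 without the library that stood apart, which was also the one with high Cyp1a1. Ahr gave 0.03 ± 0.33, but -0.45 without that library and 0.77 ± 0.17 (adjusted p = 0.0316 in edgeR's quasi-likelihood test, under the fold threshold) without its replicate. The 2 diet comparisons share no libraries. The difference between the diet effects of COPD mice and PBS mice was called for no gene (0%), with 672 at an unadjusted p under 0.05 and 17 called by DESeq2. For Cyp1b1 that difference was -0.64 ± 0.32 (adjusted p = 0.999 in edgeR's quasi-likelihood test), and -0.44 ± 0.28 without the library that stood apart.

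**Figure D3:**
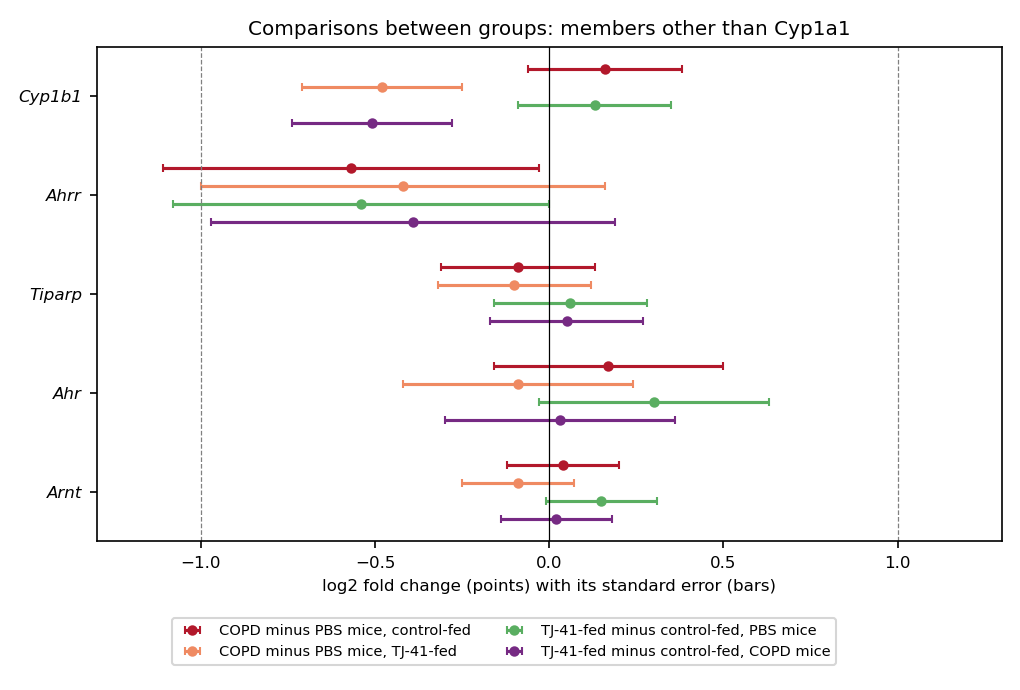
Log2 fold change (points) with its standard error (bars) of the 5 members other than Cyp1a1 in the 4 group comparisons, with dashed lines at the fold threshold of 1 in either direction. Values ran from -0.57 to 0.30, and none passed the threshold.

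Other AhR targets were read from a list of 16 genes, of which 14 were tested. None was called in the 4 comparisons, and their median log2 fold changes were 0.26, -0.15, -0.27 and -0.19 in the order given above, against 0.007, -0.002, -0.002 and -0.015 for all genes tested. Of the 14, 10 were higher in the high library of PBS mice and 10 in that of COPD mice, 7 of them in both. Differences beyond 1 were seen for 1 gene and 3 genes. Over all genes tested, 49.6% and 51.4% were higher in these libraries and 30.2% in both. Differences beyond 1 in that direction were seen for 0.730% and 5.70%. Cyp1a2, the closest relative of Cyp1a1 and mainly a liver enzyme, had at most 1 count in any library.

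Nqo1, a quinone reductase that AhR and Nrf2 both induce, had the highest Pearson's r with Cyp1a1 of all 20545 other genes tested. It stood at 19.2 and 7.17 CPM in control-fed PBS mice, at 6.61 and 6.87 CPM in TJ-41-fed PBS mice, at 8.81 and 16.8 CPM in control-fed COPD mice, and at 7.20 and 7.26 CPM in TJ-41-fed COPD mice. Both high libraries were those with high Cyp1a1, by 2.68-fold (2.20 to 3.28) and 1.90-fold (1.58 to 2.30) with counting intervals, and the other 6 lay between 6.61 and 8.81 CPM. Pearson's r of log2(CPM + 0.5) with Cyp1a1 over the 8 libraries was 0.985 and Spearman's rho 0.857, a description that rests on those 2 libraries. By rho it was not the closest, with Kazald1 at 0.929. In the group comparisons Nqo1 was not called. Its log2 fold change for the TJ-41 diet was -0.97 ± 0.45 in PBS mice and -0.82 ± 0.45 in COPD mice (adjusted p = 0.996 and 0.991 in edgeR's quasi-likelihood test), and -0.09 and -0.29 without the high library of each.

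The next genes by Pearson's r were Cntrob, Lrrc42, Cox6a2, Kazald1, Mrgbp, Idh3b and Asrgl1, with r from 0.982 down to 0.957, and none of them is on a list of AhR targets used here. Most moved little. Lrrc42 stood at 28.5 and 28.6 CPM in the 2 libraries and at 25.5 to 26.7 CPM in the others. Cox6a2, a muscle subunit of cytochrome c oxidase, stood at 15.8 and 16.8 CPM against 5.32 to 9.40 CPM. Among the members, 2518 genes had a higher r with Cyp1a1 than Ahrr had, 3938 a higher one than Cyp1b1, and 14769 to 18248 a higher one than Tiparp, Ahr and Arnt, whose r was below 0.

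A further 3 detoxification genes of the AhR target list were highest in the same libraries. Aldh3a1, an aldehyde dehydrogenase, stood at 25.4 and 16.9 CPM in control-fed PBS mice, 18.4 and 16.7 CPM in TJ-41-fed PBS mice, 12.5 and 30.7 CPM in control-fed COPD mice and 8.92 and 11.6 CPM in TJ-41-fed COPD mice. Gsta2, a glutathione transferase, stood at 4.81 and 3.06, 2.15 and 2.54, 2.92 and 7.13, and 1.77 and 2.30 CPM in the same order of groups. Its relative Gsta1 had 21 and 17 counts in the high libraries and 4 to 9 in the others. For all 3 genes the highest values were those 2 libraries, but 90.5% of the 50-base stretches of Gsta1 and 49.8% of those of Gsta2 occur in other genes, so their counts are uncertain. Areg, an epidermal growth factor ligand, was also highest there, at 14.8 and 21.8 CPM against 4.59 to 13.1 CPM.

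Antioxidant genes driven by Nrf2 were followed as a separate list of 10 without Nqo1. None was called in any comparison. In the high library of PBS mice 9 of the 10 were higher than in its replicate, in that of COPD mice 9, and in both 8, with median differences of 0.24 and 0.42. Over all genes tested these medians were -0.004 and 0.024. Of all genes tested, 49.6% and 51.4% were higher in these libraries, and 30.2% in both. Whether RNA quality or library make-up differed in these libraries was not tested. Gpx2, an epithelial glutathione peroxidase, stood at 22.5 and 28.4 CPM in the 2 libraries and at no more than 12.7 CPM in the other 6. Srxn1, which repairs peroxiredoxins, stood at 57.2 and 60.9 CPM against 32.5 to 43.1 CPM. Hmox1, a heme oxygenase, was also higher in both, at 35.2 against 27.2 CPM in PBS mice and 81.1 against 31.0 CPM in COPD mice. Its high levels were not limited to those 2 libraries, since it stood at 43.9 and 65.1 CPM in TJ-41-fed COPD mice.

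**Figure D4:**
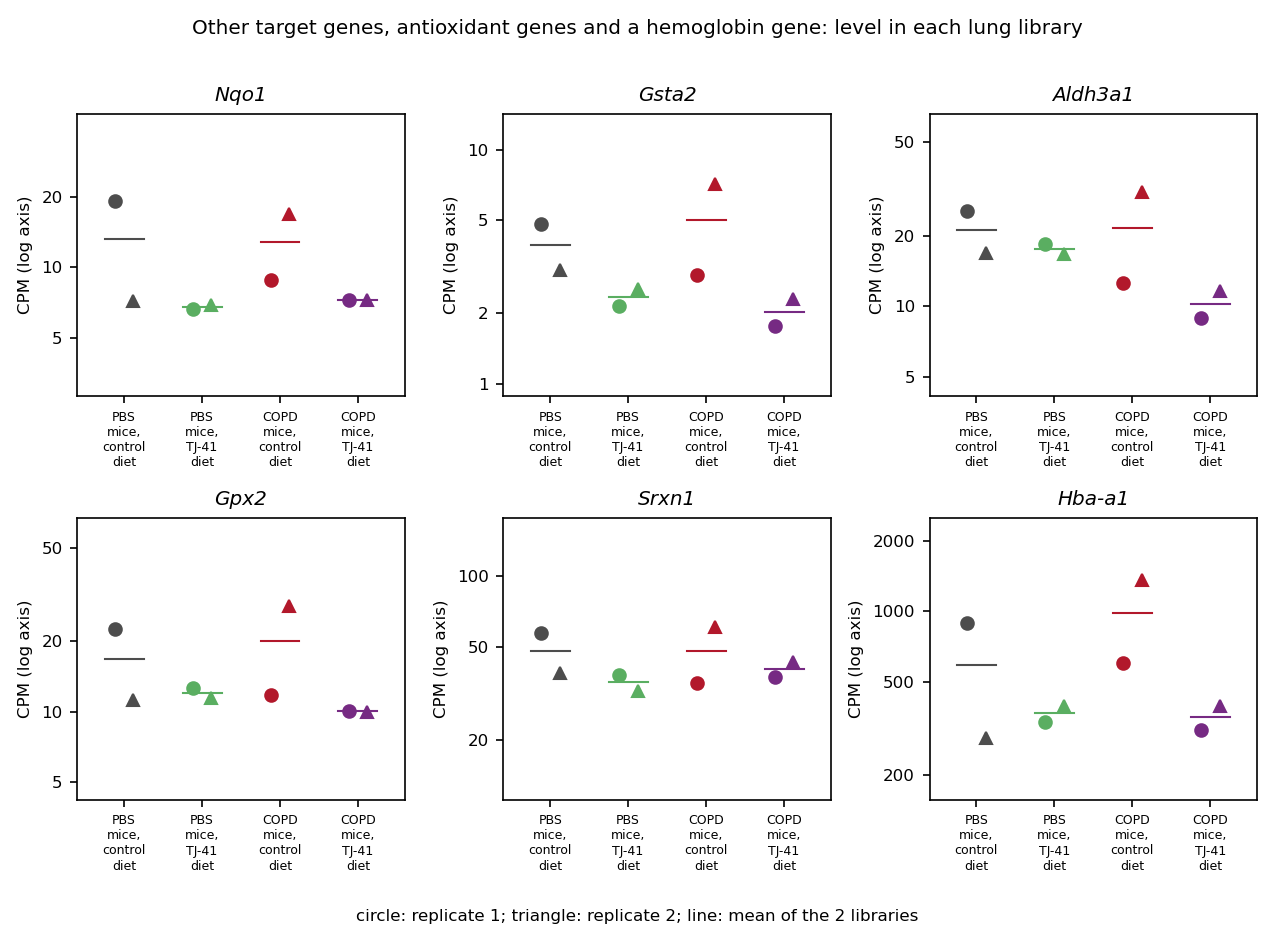
Level of 3 AhR targets (Nqo1, Gsta2, Aldh3a1), 2 antioxidant genes (Gpx2, Srxn1) and a hemoglobin gene (Hba-a1) in CPM on a log axis, with 1 point per library (circle for replicate 1, triangle for replicate 2) and a line at the mean of the 2 libraries. In each gene replicate 1 of control-fed PBS mice and replicate 2 of control-fed COPD mice were the 2 highest libraries, at 19.2 and 16.8 CPM for Nqo1 and at 893 and 1364 CPM for Hba-a1.

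The chaperones and coactivators of AhR were 9 genes, none called. Only 3 were higher in the high library of PBS mice and 4 in that of COPD mice. Hsp90aa1, Hsp90ab1 and Ptges3, the chaperone complex, were highest in replicate 2 of TJ-41-fed PBS mice or in replicate 2 of control-fed COPD mice, with Ptges3 at 108 and 96.0 CPM there and 40.1 to 57.0 CPM elsewhere.

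Among 13 relatives of Ahr and Arnt in the bHLH-PAS family, 10 were tested and 2 were called in each comparison of COPD with PBS mice, both clock genes, where 0.122% of all genes tested were called on the control diet and 0.0779% on the TJ-41 diet. Arntl, the core clock activator, stood at 36.8 to 54.7 CPM in the 4 libraries of PBS mice and at 2.87 to 7.67 CPM in the 4 of COPD mice. Its log2 fold change was -2.96 ± 0.37 on the control diet and -2.90 ± 0.37 on the TJ-41 diet (adjusted p = 0.0308 and 0.0311 in edgeR's quasi-likelihood test). Npas2, which replaces CLOCK in its complex, fell by 2.51 and 2.90 on the log2 scale (adjusted p = 0.0465 and 0.0256 in the same test). With a replicate block Npas2 was called on neither diet. With only the control-diet groups in the fit neither gene was called. Without replicate 1 of control-fed PBS mice the adjusted p in that diet was 0.388 for Arntl and 0.446 for Npas2, and without its replicate 0.149 and 0.282. Without the library that stood apart both stayed called, with log2 fold changes of -2.42 for Arntl and -2.94 for Npas2. On the TJ-41 diet, leaving out any 1 of the 4 libraries gave 0.157 to 0.319 for Arntl and 0.111 to 0.298 for Npas2. The direction was the same in each of these fits, and the groups did not overlap for either gene.

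Over the whole list of 17 clock genes, 6 were called higher and 2 lower in control-fed COPD mice, and 6 and 2 on the TJ-41 diet, against the same background of 0.122% and 0.0779%. Per2 was called on the control diet only and Nr1d1 on the TJ-41 diet only, which was not tested as a difference, and the other 7 were called on both. These counts depended on the fit and on single libraries. With only the compared groups in the fit, 3 were called on the control diet and 12 on the TJ-41 diet. On the control diet 1 of the 17 genes, Dbp, was called without replicate 1 of PBS mice, 4 without replicate 2 of PBS mice, 12 without replicate 1 of COPD mice and 10 without replicate 2 of COPD mice. On the TJ-41 diet 1 was called, again Dbp, when 1 or the other library of PBS mice was left out, 2 without replicate 1 of COPD mice and 6 without replicate 2. Dbp stood at 8.76 to 21.3 CPM in PBS mice and at 185 to 200 CPM in COPD mice. Arntl, Npas2 and Dbp thus separated the disease states in every library. They did not separate the libraries with high Cyp1a1 from their replicates in that way. Arntl stood at 44.3 against 36.8 CPM in control-fed PBS mice and at 2.87 against 7.56 CPM in control-fed COPD mice. The hour of lung collection is not given in the sources used here, and its part in these values was not tested.

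Enzymes that turn tryptophan into kynurenine, a source of AhR ligands, were 11 genes with 9 tested and none called. Of the 9, 8 were higher in the high library of PBS mice and 1 in that of COPD mice. Ido1, the enzyme that starts the route, stood at 4.08 and 1.40 CPM in control-fed PBS mice and at 4.17 and 1.95 CPM in control-fed COPD mice, so that its high libraries matched those of Cyp1a1 in PBS mice only. It stood at 1.68 to 2.00 CPM on the TJ-41 diet.

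Targets of hypoxia-inducible factors, which share ARNT, were 12 genes with none called. They were higher in the high library for 5 genes in PBS mice and 9 in COPD mice. Other P450 genes of the lung were 12, with none called, 7 higher in the high library of PBS mice and 11 in that of COPD mice. Cyp26b1, which degrades retinoic acid, stood at 110 and 9.19 CPM in control-fed PBS mice and at 9.08 to 24.4 CPM in all others, high in the first of the Cyp1a1 libraries and not in the second. Cyp2a5, an enzyme of nasal and lung epithelium, stood at 17.5 to 24.3 CPM in PBS mice and at 52.0 to 155 CPM in COPD mice (adjusted p = 0.0656 on the control diet in edgeR's quasi-likelihood test). Glucocorticoid and stress genes were 9, none called, with 2 and 8 higher in the high libraries. The metallothionein genes Mt1 and Mt2 were highest in the high library of COPD mice, at 44.4 and 16.2 CPM, and next highest in that of PBS mice, at 17.1 and 3.56 CPM. The other 6 libraries lay between 8.49 and 16.9 CPM for Mt1 and between 0.871 and 3.02 CPM for Mt2.

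Whole lung RNA cannot tell fewer cells of a type from less RNA per cell, so markers of lung cell types were read in the same libraries. All 5 red cell markers were higher in both libraries with high Cyp1a1, by more than 1 on the log2 scale for 5 of them in PBS mice and 2 in COPD mice. Their summed level was 2735 and 874 CPM in control-fed PBS mice, 1060 and 1308 CPM in TJ-41-fed PBS mice, 1941 and 3755 CPM in control-fed COPD mice and 989 and 1198 CPM in TJ-41-fed COPD mice. Their part in the Cyp1a1 result was not tested. Liver markers were not higher with Cyp1a1. Their summed level was 1.62 and 0.0513 CPM in the libraries with high Cyp1a1, with albumin at 0.628 and 0 CPM. It was 38.2 CPM in replicate 2 of control-fed PBS mice.

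Of the cell types in which Cyp1a1 can be induced, club cell markers were higher for 2 of 5 in the high library of PBS mice and 5 of 5 in that of COPD mice, with sums of 23937 and 20147 CPM and of 14238 and 32898 CPM. Alveolar type II markers were higher for 4 of 6 and 3 of 6. Capillary endothelial markers were higher for 3 of 7 and 2 of 7, with sums of 3094 and 3601 CPM in control-fed PBS mice and 3047 and 2777 CPM in control-fed COPD mice. Macrophage markers were higher for 5 of 7 and 3 of 7, and Marco, a scavenger receptor of alveolar macrophages, was beyond 1 in both, at 17.5 and 3.48 CPM and at 3.65 and 19.8 CPM. Neutrophil markers were higher for 3 of 5 and 0 of 5. Their part in the Cyp1a1 values was not tested.

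In none of the remaining cell type lists was every marker higher in both libraries. Alveolar type I markers were higher for 4 of 6 and 5 of 6, and ciliated cell markers for 1 of 6 and 6 of 6. Fibroblast markers were higher for 1 of 7 and 4 of 7, and smooth muscle and pericyte markers for 1 of 7 and 7 of 7. B and plasma cell markers were higher for 2 of 5 and 1 of 5, and T cell markers for 3 of 5 and 3 of 5. Adipocyte markers were higher for 2 of 4 and 4 of 4, cardiomyocyte markers for 3 of 5 and 4 of 5, and keratinocyte markers, which would mark skin, for 1 of 2 and 1 of 2, at 3.30 to 4.97 CPM in sum.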

How the data were processed

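RNA sequencing of mouse lung was deposited as 1 table per library with the raw counts of reads per Ensembl gene, which the authors made without normalization. The submitters' processing notes name HISAT2, edgeR and mm10, and the paper's methods name CLC Genomics Workbench. How reads were counted, on which strand and with which rule for multi-mapped reads, is not given in the sources used here. Groups and replicate numbers came from the sample labels.

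GENCODE M21 named 52489 of the 52636 genes. Counts were analysed in R 4.3.3 with edgeR 4.0.16, using filterByExpr (count minimum 10, total minimum 15), TMM factors (0.935 to 1.02) and the quasi-likelihood test on 4 groups with 4 residual degrees of freedom. The common biological coefficient of variation was 0.208. Each SE was the absolute log2 fold change divided by the square root of the F value of that test, so none is printed for Cyp1a1. The pseudocount of log2 values was 0.5 CPM. Intervals cover counting error only, at 95%, and the floor of 3 counts was 0.153 to 0.162 CPM. The fits were tested on simulated data. Alternatives were DESeq2 1.42.0, relative log expression factors, no filter, a replicate block, the compared groups alone, other pseudocounts and leaving out each library.

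Correlations of replicate differences between groups ran from -0.248 to 0.14. They gave no clear sign that equal numbers pair the libraries, but cannot exclude a shared batch. The lowest, -0.248, was between the 2 control-diet groups. The libraries with high Cyp1a1 thus differed from their replicates partly in the same direction over all genes tested. The members and the 26 gene lists were chosen with earlier results of these data known. Named genes were the members, genes of a list that were called or among its 4 with the widest range, and the 8 genes with the highest Pearson's r with Cyp1a1. Srxn1, Gsta1 and Cyp1a2 were named after their values were seen.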

Additional observations from a re-analysis of the deposited data

How the results depend on the processing

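None of the 5 members besides Cyp1a1 was called in any comparison under any of the alternatives. In the order of the 4 comparisons and the difference of diet effects, DESeq2 called 172, 116, 6, 10 and 17 genes in all, and the fit without a filter called 147, 89, 0, 2 and 6. With only the compared groups in the fit, 248 genes were called in TJ-41-fed COPD mice, 5 for the diet in PBS mice and 0 in COPD mice. That fit has no difference of diet effects. With the replicate block 21, 18, 0, 0 and 0 genes were called. With the numbers of control-fed COPD mice crossed, chosen after seeing the data, the first count was 36. Npas2 was no longer called under the block (adjusted p = 0.0911 and 0.065 in edgeR), and neither Arntl nor Npas2 with only the control-diet groups (0.0979 and 0.125). Leaving out 1 library gave 3 to 1343 called genes on the control diet, 2 to 36 on the TJ-41 diet, 0 to 728 for the diet in COPD mice and 0 to 14 for the difference, with 3 without replicate 1 of PBS mice and 1343 without replicate 1 of COPD mice, and the cause was not tested. Log2 fold changes of members also changed sign when 1 library was left out. On the control diet they ran from -0.04 to 0.34 for Cyp1b1, -1.01 to 0.06 for Ahrr, -0.35 to 0.13 for Tiparp, -0.57 to 0.66 for Ahr, -0.07 to 0.16 for Arnt and -0.59 to 0.84 for Nqo1. On the TJ-41 diet they ran from -0.75 to 0.01 for Ahrr, -0.30 to 0.15 for Tiparp and -0.21 to 0.02 for Ahr. For the diet in PBS mice they ran from -0.03 to 0.31 for Cyp1b1, -0.98 to 0.09 for Ahrr and -0.18 to 0.26 for Tiparp, and in COPD mice from -0.16 to 0.31 for Tiparp, -0.45 to 0.77 for Ahr and -0.05 to 0.08 for Arnt. The correlations with Cyp1a1 kept their signs under other pseudocounts and factors, and leaving out a library was not run, since it leaves fewer than 6. With 2 libraries a group, at 8 to 21 counts for Ahrr, only large changes of that gene were detectable.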

Other observations

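Of the 20546 genes tested, 40 were more than 1 higher on the log2(CPM + 0.5) scale in both libraries with high Cyp1a1. Against this, 24 were more than 1 higher in both of their replicates, 13 in replicate 1 of both groups and 13 in replicate 2 of both. Many of the 40 were processed pseudogenes, such as Gm4613 (1.12 and 1.21) and Rps2-ps13 (1.00 and 1.33). Some were miRNA entries, such as Mir6236 (1.65 and 1.29), or immunoglobulin variable genes, such as Ighv1-72 (1.04 and 2.82). Besides Cyp1a1 and Marco, the protein-coding genes included Ces1g, a carboxylesterase, at 1.79 and 1.60, and Rbp7, a retinol-binding protein, at 1.57 and 1.39. Gstm6, a glutathione transferase, differed by 1.06 and 1.73, and Cxcl14, a chemokine, by 1.08 and 1.40. The hemoglobin genes Hba-a1 (1.63 and 1.19) and Hba-a2 (1.64 and 1.13) were also among the 40. These genes were named after their values were seen, and with 1 library on each side none of the differences has a replicate check.

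Cyp26b1 was the gene with the third largest difference between the 2 libraries of control-fed PBS mice, at 3.51 on the same scale, and differed by 0.76 in COPD mice. In the TJ-41 groups Marco stood at 2.77 and 2.49 CPM in PBS mice and at 5.11 and 14.9 CPM in COPD mice, so that its level also varied where Cyp1a1 was low.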
